A study of Homo sapiens with 6 samples.

Results

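The genes that copy DNA and supply its building blocks were followed in K562 cells carrying wild type C/EBPα, its shorter isoform p30 or an empty vector. The list held 49 genes, chosen by name: those for the origin recognition complex, the MCM helicase and its activators, the sliding clamp and clamp loader, the replicative polymerases, the enzymes that finish Okazaki fragments, and 4 enzymes of deoxynucleotide synthesis. Of these, 44 had a row in all 3 deposited tables, out of 17066 distinct symbols. GINS2, PRIM1, POLD1, POLD3 and FEN1 had no row under these names and were not analysed here.

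K562, a long-established leukemia line of erythroid character, lacks both C/EBPα isoforms. The CEBPA line carried a Tet-inducible transposon with wild type C/EBPα, a transcription factor of granulocyte differentiation, and the P30 line carried one with p30, the shorter isoform without the N-terminal transactivation domain. The CTR line carried the empty vector. The caption of the study's western blot names both the full-length protein and p30 in the CEBPA line. CEBPA vs P30 is therefore not the full-length protein alone against p30. All 3 lines received 200 ng/ml doxycycline for 48 h, no sequenced library came from untreated cells, and whether a line was 1 clone is not given in the sources used here, so that differences between the lines themselves cannot be told apart from effects of the isoforms. Each line was sequenced as 2 replicates, but the deposited values are 1 FPKM (fragment counts scaled to transcript length and library size) per gene and line with the replicates pooled. Sequencing was done in separate runs on different instruments, and pooled values do not allow the runs to be told apart. The values below therefore carry no error and no test. The study itself tested these comparisons with Cuffdiff on the replicates and listed the RNAs that differed, and those calls are not used here. The read counts behind each value cannot be recovered from FPKM, and the study gives only a range of sequenced reads over all samples.

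The lines were checked against cell type markers. Of 8 erythroid markers 5 had a row, none at 0, and together they stood at 1688 FPKM in CTR, 1094 in P30 and 556 FPKM in CEBPA. Of 9 granulocyte markers 7 had a row, none at 0, with sums of 52.8 FPKM in CTR, 80.4 in P30 and 10208 FPKM in CEBPA, carried in CEBPA by S100A9, S100A8 and LYZ with 4623, 3731 and 1781 FPKM. Not all granulocyte markers moved with them: AZU1 was at 2.54, 4.32 and 2.202 FPKM and PRTN3 at 0.378, 0.674 and 0.670 FPKM in CTR, P30 and CEBPA. The 3 lymphoid markers with a row (of 5) summed to 13.2, 13.2 and 4.34 FPKM. The part of this shift of cell state in the results below was not tested. According to the study, doxycycline stopped the growth of CEBPA cells and led them toward granulocytes, and it left the growth of CTR and P30 cells unchanged. In bulk RNA, fewer cells in S phase and less of a transcript per cell cannot be told apart.

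Replication starts in G1, when the origin recognition complex (ORC), CDC6 and CDT1 load the ring-shaped MCM2-7 helicase onto DNA, a step called licensing. At the start of S phase the kinase CDC7 with its partner DBF4 helps to turn the loaded rings into active helicases with CDC45 and GINS. DNA polymerases then copy both strands behind the fork, held by the clamp PCNA. Many of these genes are classical targets of the E2F factors, which switch them on at the passage from G1 to S phase and are held in check by the RB family of pocket proteins. C/EBPα is known for stopping the division of myeloid progenitors as they mature.

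The promoters of the 6 members that differed at least 2-fold between CEBPA and CTR are shown first, because they differ in direction while sharing E2F motifs. CDC7 is shown as well, as the member whose promoter held a C/EBP motif. Sequences are from RefSeq and were placed on GRCh37 (hg19, the authors' build) by exact match, each at 1 position of its chromosome. Capitals mark E2F motifs, and in CDC7 the C/EBP motif alone, since its E2F motifs at -102 and -9 are left in lower case. TK1 and CDC7 each have 2 promoter sequences, and the one holding the marked motif is shown. For TK1 the other holds no E2F motif. Positions count from the annotated start site, with -1 the base before it. Annotated exons were left out, and where the motif lay inside an annotated exon of the gene, as in TK1 and LIG1, 30 bases around it are given.
POLA1 (chrX:24711885-24711989, plus strand, -150 to -46): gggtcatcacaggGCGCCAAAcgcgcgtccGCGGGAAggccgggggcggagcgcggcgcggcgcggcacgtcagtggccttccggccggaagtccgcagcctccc
CDT1 (chr16:88870047-88870196, plus strand, -150 to -1): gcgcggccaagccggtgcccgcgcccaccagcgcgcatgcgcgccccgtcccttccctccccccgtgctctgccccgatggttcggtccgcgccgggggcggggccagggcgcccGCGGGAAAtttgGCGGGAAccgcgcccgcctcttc
TYMS (chr18:657598-657652, plus strand, -55 to -1): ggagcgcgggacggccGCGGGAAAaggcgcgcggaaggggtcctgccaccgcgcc
TK1 (chr17:76183134-76183163, minus strand, -30 to -1): tggtttaaagcggtcggcGCGGGAAccagg
POLE (chr12:133263963-133264078, minus strand, -150 to -35): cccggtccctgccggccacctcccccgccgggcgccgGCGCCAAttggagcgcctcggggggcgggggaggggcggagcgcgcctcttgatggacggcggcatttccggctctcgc
LIG1 (chr19:48673697-48673726, minus strand, -125 to -96): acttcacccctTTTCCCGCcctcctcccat
CDC7 (chr1:91966258-91966407, plus strand, -150 to -1): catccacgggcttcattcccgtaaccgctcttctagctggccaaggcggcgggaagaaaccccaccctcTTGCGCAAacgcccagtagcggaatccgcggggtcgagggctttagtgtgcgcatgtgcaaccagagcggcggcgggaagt

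The motifs were searched on both strands in windows of 250 bases before and 50 after each start site. The 6 E2F motifs were TTTGGCGC, TTTCCCGC, TTTCGCGC, TTTGCCGC, TTGGCGC and TTCCCGC, where the last pair lies within the first pair, so that a match to either of the first counts in both. Promoters were found for 38 of the 44 members, and 28 of them (73.7%) held at least 1 E2F motif in any of their windows. Among the 27305 genes of the table the share was 12%, and among the 8594 of them with over 1 FPKM in a line it was 19.2%. By single windows, since genes differ in how many they have, the shares were 61.2% of 49 windows of the members and 10.1% of all 35116. The CCAAT box stood in 60.5% of the 38 promoters, in 39.7% of all and in 43.2% of those of genes with over 1 FPKM in a line. The C/EBP motif TTGCNNAA occurred in 1 of the 38 (2.63%), against 12.7% of all promoters and 10.5% of those of genes with over 1 FPKM in a line. There, in CDC7, it was the full palindrome TTGCGCAA at -81. A match is a run of letters and says nothing of binding in these cells.

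All 44 members exceeded 1 FPKM in every line, so a filter on low values removed none. In CTR they ran from 13.1 FPKM (GINS1, a subunit of the GINS complex) to 229 FPKM (MCM7, a subunit of the helicase), with a median of 43.5 FPKM. In P30 the same genes marked the ends, at 14.5 and 276 FPKM, and the median was 46.9 FPKM. In CEBPA the range lay lower, from 7.75 FPKM for MCM10, which joins the helicase at its activation, to 133 FPKM for MCM7, with a median of 34.6 FPKM. Summed over members, the level was 2849 FPKM in CTR, 3135 in P30 and 2057 FPKM in CEBPA, which is 0.432%, 0.469% and 0.337% of the FPKM of all rows. The most common order, found in 31 of 44 members, was P30 highest, then CTR, then CEBPA. This is 70.5% of the members, beside 23.5% of 13006 genes above 1 FPKM in a line. Another 4 (ORC6, GMNN, POLD2 and TK1) were highest in CTR and lowest in CEBPA, 9.09% beside 25.6% of the same 13006 genes. Highest in CEBPA were 7 members. Of these, ORC4, ORC5, GINS4, RPA3, POLA1 and RRM1 had P30 second (13.6%, beside 25.6%) and RFC1 had CTR second (2.27%, beside 15.3%). The remaining members, ORC3 and DNA2, were highest in P30 and lowest in CTR (4.55%, beside 6.05%).

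**Figure D1:**
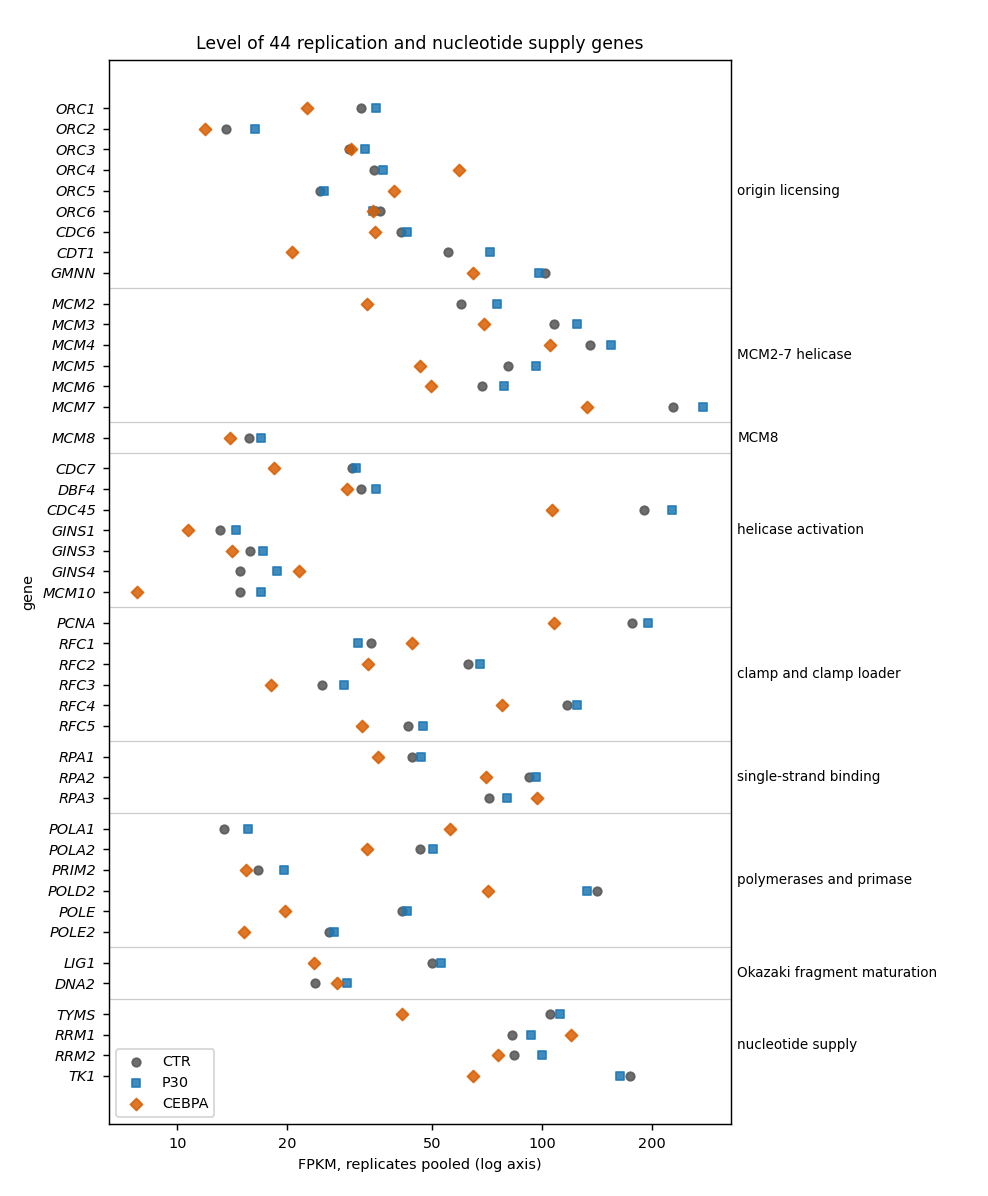
FPKM of the 44 genes (x axis, log scale, replicates pooled) by gene and role (y axis), with circles for CTR, squares for P30 and diamonds for CEBPA. CEBPA is the lowest of the 3 lines for 35 genes and the highest for 7, among them POLA1 at 56.0 FPKM against 13.4 in CTR.

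The comparison of CEBPA with CTR shows what wild type C/EBPα expression was accompanied by. Changes are given as log2(FPKM + 1) of the first line less that of the second, which makes those of low genes look smaller than they are. The members were lower in CEBPA by a median of -0.43, beside -0.01 over the 13673 genes above 1 FPKM in either line, and 35 of 44 (79.5%) were lower, beside 50.5% of all genes. A difference of at least 2-fold downward was seen in 5 members (11.4%), beside 6.92% of all genes, and upward in 1 (2.27%), beside 14.0%. By this limit the shift was thus broad but mostly under 2-fold. The member just inside it was POLE at -1.03 and the one just outside POLD2 at -0.99 (upward, POLA1 at 1.99 and ORC4 at 0.76). The genes of like abundance, 6944 with their higher value between 13.1 and 229 FPKM, had a median of -0.09, and 7.88% of them were at least 2-fold lower.

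CEBPA was also set against P30, a line that expresses the same DNA-binding domain. Both comparisons share the CEBPA libraries, so their values are not independent and stand side by side only. Against P30 the median over members was -0.57, beside -0.04 over 13569 genes, and 37 members (84.1%) were lower, beside 52.1% of all genes. At least 2-fold lower were 11 members (25.0%), beside 5.79% of all genes: CDT1, TYMS, TK1, MCM2, LIG1, CDC45, POLE, MCM7, MCM5, MCM10 and RFC2. POLA1 was again the member at least 2-fold higher, beside 13.1% of all genes. RFC2 at -1.0 was just inside the limit and POLD2 at -0.89 just outside. Many of these 11 lie close to it: with the FPKM of each line scaled to the same sum, which moves the median of all genes from -0.04 to 0.09, 4 were at least 2-fold lower (CDT1, TYMS, TK1 and MCM2), beside 4.17% of all genes, and 1 higher. In CEBPA vs CTR that scaling moved the median of all genes from -0.01 to 0.10 and left 3 members lower, TK1, CDT1 and TYMS, beside 5.5%.

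**Figure D2:**
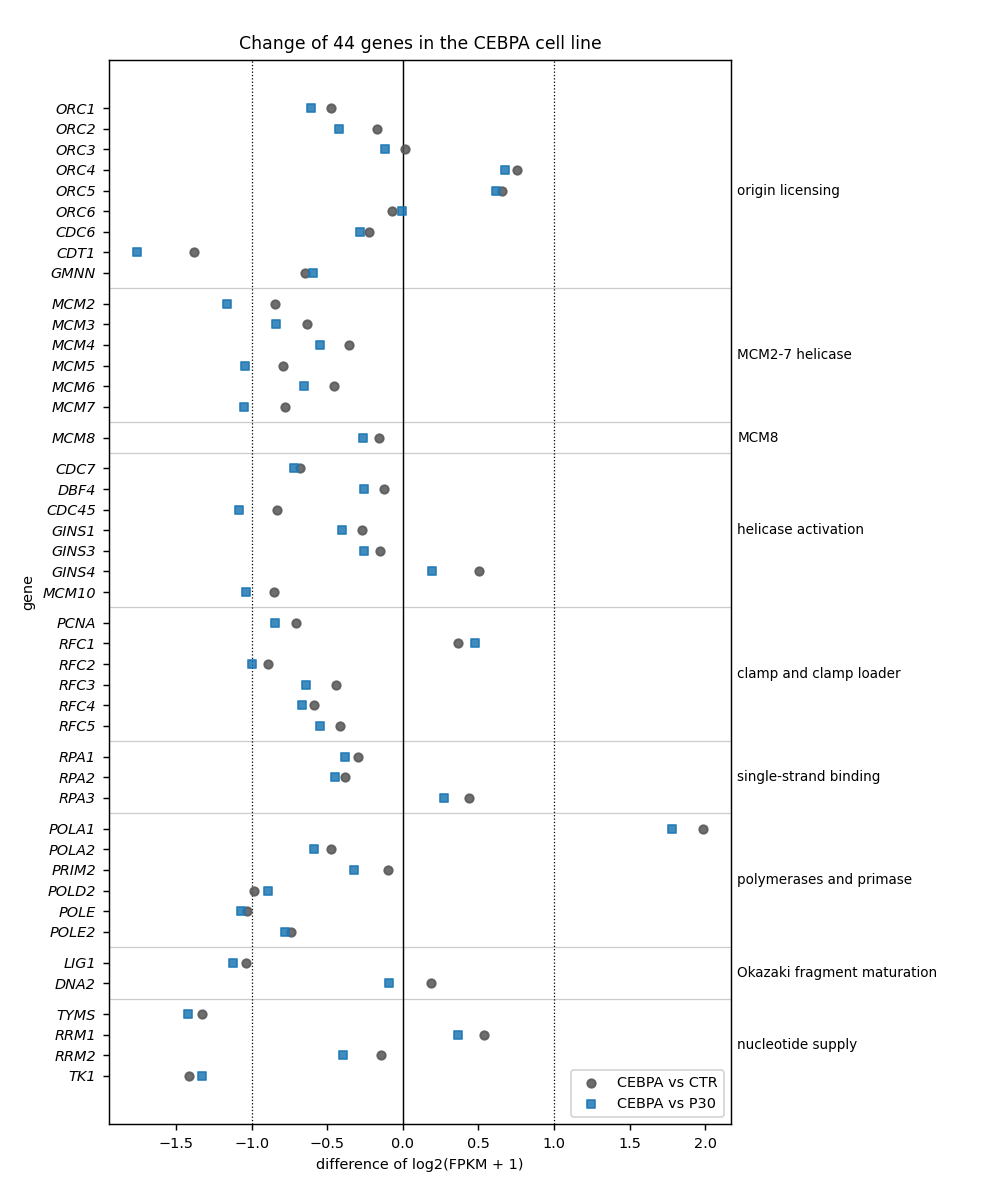
Difference of log2(FPKM + 1) (x axis) for each of the 44 genes by role (y axis), with circles for CEBPA vs CTR and squares for CEBPA vs P30, and dotted lines at the 2-fold limit. MCM2-7 lie left of 0 without exception, while POLA1 stands alone on the right at 1.99 and 1.78.

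Among the licensing genes, the loader CDT1 differed most. It stood at 55.2 FPKM in CTR, 72.0 in P30 and 20.6 FPKM in CEBPA. CEBPA was the lowest line by a wide gap, with changes of -1.38 against CTR and -1.76 against P30. Geminin (GMNN), which binds CDT1 and prevents a new round of licensing, was at 102, 98.4 and 64.7 FPKM in the same order. Since CDT1 was lower by more than its inhibitor, the ratio of GMNN to CDT1 was 1.85 in CTR, 1.37 in P30 and a higher 3.15 in CEBPA. CDC6, the ATPase that recruits CDT1 to origins, was near level, at 41.0, 42.8 and 34.9 FPKM.

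The 6 subunits of ORC, which marks origins, went different ways. ORC1, the subunit whose amount cycles in human cells, had 31.9 FPKM in CTR, 35.1 in P30 and 22.7 FPKM in CEBPA, a change of -0.47 against CTR. ORC4 and ORC5, ATPase-fold subunits of the core ring, were instead higher in CEBPA: ORC4 went from 34.6 FPKM in CTR to 59.2, and ORC5 from 24.6 to 39.3. Their P30 values, 36.7 and 25.3 FPKM, were close to CTR. ORC2 (-0.17), ORC3 (0.02) and ORC6 (-0.07) differed little between CEBPA and CTR, and the sign of ORC6 turned with the scaling. The ratio of ORC4 to ORC1 was thus 1.08 in CTR, 1.05 in P30 but 2.61 in CEBPA.

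In the MCM2-7 helicase all 6 subunits were lowest in CEBPA and highest in P30, and the median change in CEBPA was -0.71 against CTR and -0.94 against P30. MCM2 had 60.1 FPKM in CTR, 75.2 in P30 and 33.0 FPKM in CEBPA, the widest span of the 6 as a change. MCM5 had 80.9, 96.6 and 46.3 FPKM. MCM7 had 229, 276 and 133 FPKM. MCM3 (-0.63) and MCM6 (-0.46) lay between these and MCM4. MCM4, at 135, 155 and 106 FPKM, differed least, with -0.36 against CTR. The order of levels was MCM7, MCM4, MCM3, MCM5, MCM6 and MCM2 from high to low in CTR and P30, and in CEBPA only MCM5 and MCM6 changed places. Although the subunits form a ring with 1 copy of each, the highest level was 3.81 times the lowest in CTR and 4.02 times in CEBPA. MCM8, a related helicase of recombination repair that is not part of the ring, was at 15.7, 17.0 and 14.0 FPKM, a change of -0.16 against CTR.

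Among the activators of the helicase, CDC45 and MCM10 followed the MCM genes. CDC45, which stays with the moving helicase, had 191 FPKM in CTR, 227 in P30 and 107 FPKM in CEBPA. MCM10 had 14.8, 16.9 and 7.75 FPKM, changes of -0.85 against CTR and -1.04 against P30. CDC7 was lower in CEBPA, at 18.4 FPKM against 30.1 in CTR and 31.0 in P30, whereas its regulatory subunit DBF4 was at 29.1, 31.9 and 35.0 FPKM in CEBPA, CTR and P30. The ratio of DBF4 to CDC7 was therefore 1.58 in CEBPA and 1.06 in CTR. The GINS subunits, which bridge CDC45 and the helicase, did not move as 1 unit: GINS1 (-0.27) and GINS3 (-0.15) were slightly lower in CEBPA vs CTR, while GINS4 was higher, at 21.5 FPKM against 14.9 in CTR and 18.7 in P30.

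PCNA, the clamp that tethers the polymerases, stood at 177 FPKM in CTR, 195 in P30 and 108 FPKM in CEBPA. Its change of -0.71 against CTR lay within the range of MCM2-7, from -0.36 to -0.84. The small subunits of the loader that opens the clamp were lower as well, from -0.42 (RFC5) through RFC3 (-0.44) and RFC4 (-0.59) to -0.89 (RFC2, with 62.5, 67.5 and 33.3 FPKM). RFC1, the large subunit particular to this loader, went the other way, with 33.9 FPKM in CTR, 31.3 in P30 and 43.9 FPKM in CEBPA. RPA, which coats single-stranded DNA, showed the same kind of split: RPA1 (-0.30) and RPA2 (-0.38) were lower in CEBPA vs CTR, and the smallest subunit RPA3 was higher, at 97.2 FPKM against 71.6. The ratio of RPA2 to RPA1 stayed between 1.98 and 2.10 in the 3 lines.

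The polymerases held the member furthest from the rest. POLA1, the catalytic subunit of polymerase α that extends the RNA primer, had 13.4 FPKM in CTR, 15.6 in P30 and 56.0 FPKM in CEBPA, 4.18 times the CTR level. Among the members it went from second lowest in CTR to above the members' median in CEBPA. Its partners in the same 4-subunit complex did not share this: POLA2 was at 46.4, 50.2 and 33.1 FPKM and the primase subunit PRIM2 at 16.6, 19.6 and 15.5 FPKM. POLA1 amounted to 0.289 of POLA2 in CTR and 0.311 in P30, and to 1.69 of it in CEBPA. Of the leading-strand polymerase, both subunits among the members were lower in CEBPA. POLE was at 41.4, 42.6 and 19.7 FPKM and POLE2 at 26.0, 26.8 and 15.2 FPKM. Its other subunits POLE3 and POLE4, from the list of other fork genes, were nearly level in CEBPA vs CTR, at -0.13 and -0.05. POLD2, the second subunit of the lagging-strand polymerase δ, was at 141, 133 and 71.0 FPKM. LIG1, the ligase that seals Okazaki fragments, was at 49.9, 53.0 and 23.7 FPKM, a change of -1.04 in CEBPA vs CTR. DNA2, a nuclease that trims long flaps, had 23.9, 29.2 and 27.3 FPKM.

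In nucleotide supply the thymidine enzymes stood apart from ribonucleotide reductase. TK1, the S-phase thymidine kinase of the salvage route, had 175 FPKM in CTR, 164 in P30 and 64.8 FPKM in CEBPA, with changes of -1.41 and -1.33. TYMS, which makes thymidylate anew, had 106, 112 and 41.3 FPKM, with -1.33 and -1.42. Both were thus at 0.371 and 0.392 of their CTR level, and the ratio of TYMS to TK1 stayed between 0.605 and 0.684 in the 3 lines. RRM1, the large subunit of ribonucleotide reductase, was by contrast highest in CEBPA, at 120 FPKM against 82.6 in CTR and 93.4 in P30. RRM2, the small subunit made in S phase, was at 83.7 FPKM in CTR, 99.997 in P30 and 75.6 FPKM in CEBPA, a change of only -0.15 against CTR. The alternative small subunit RRM2B, a p53 target from the list of other deoxynucleotide enzymes, was at 13.2, 15.4 and 33.0 FPKM, so that its ratio to RRM2 was 0.158 in CTR, 0.154 in P30 but 0.436 in CEBPA. RRM2P3, a pseudogene copy of RRM2, had a row with 3.40 FPKM in CTR, and reads shared between the copies could move between them.

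**Figure D3:**
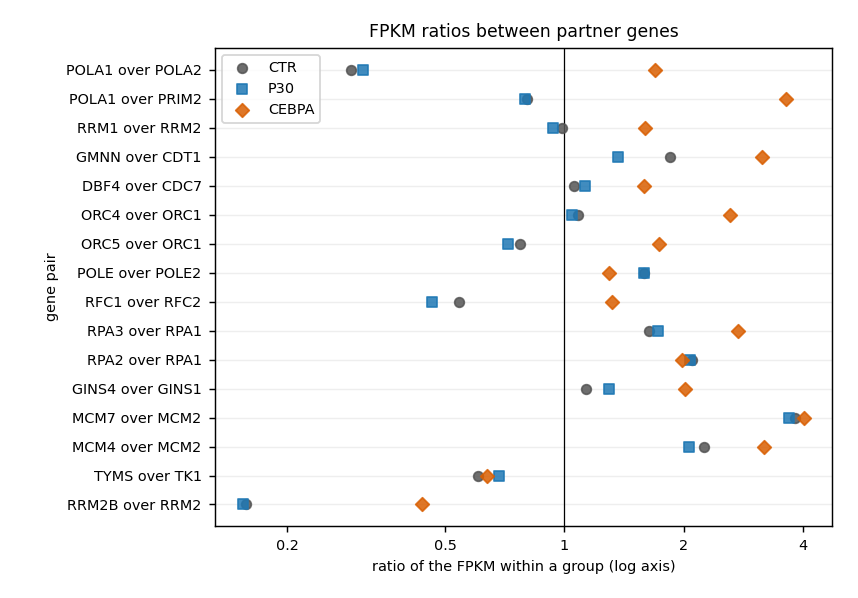
Ratio of the FPKM of partner genes within each line (x axis, log scale) for 16 pairs (y axis), with circles for CTR, squares for P30 and diamonds for CEBPA. CTR and P30 lie close together in most pairs, while in CEBPA the ratio of POLA1 to POLA2 is 5.85 times and that of ORC4 to ORC1 2.41 times the CTR ratio.

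The promoter motifs were read beside these changes. The 28 members with an E2F motif had a median change of -0.53 in CEBPA vs CTR, and 24 of them (85.7%) were lower. Over all 1640 compared genes with such a motif the median was -0.10 and 55.4% were lower. The 10 members without one had a median of -0.15, with 8 lower, beside -0.02 and 50.9% over 6931 genes without. Among the members the shares lower were thus 85.7% with and 80.0% without a motif. The medians lay further apart (-0.53 and -0.15), and no difference was tested. Of the 10 members without a motif, POLD2 (-0.99), MCM10 (-0.85) and CDC45 (-0.84) were lowest. RFC5 (-0.42), ORC2 (-0.17), DBF4 (-0.13), PRIM2 (-0.10) and ORC6 (-0.07) followed, and ORC5 (0.65) and ORC4 (0.76) were higher. POLA1 held TTTGGCGC at -137 and TTCCCGC at -120 and was higher in CEBPA. CDC7, with the C/EBP palindrome, had a change of -0.68. In P30 vs CTR the medians were 0.11 with and 0.13 without an E2F motif.

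P30 was compared with CTR to see what p30 expression was accompanied by. The differences were small and mostly upward: 39 of 44 members (88.6%) were higher in P30, beside 55.1% of the 12395 genes compared, and the median was 0.13 beside 0.02. None of the members reached 2-fold in either direction, beside 1.02% of all genes upward and 0.613% downward. Their changes ran from -0.11 (RFC1) to 0.38 (CDT1), which is within the spread of 0.20 over all genes (scaled median absolute deviation) for most of them. The 5 members lower in P30, beside 44.9% of all genes, were RFC1, POLD2, TK1, ORC6 and GMNN. MCM2-7 were higher without exception, by 0.19 (MCM4) to 0.32 (MCM2), as were all 7 measured activators of the helicase. RRM2 (0.25) and DNA2 (0.28) were higher too, while POLE (0.04) and CDC7 (0.04) were nearly level. Whether so small a difference exceeds that between replicates could not be examined in pooled values.

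**Figure D4:**
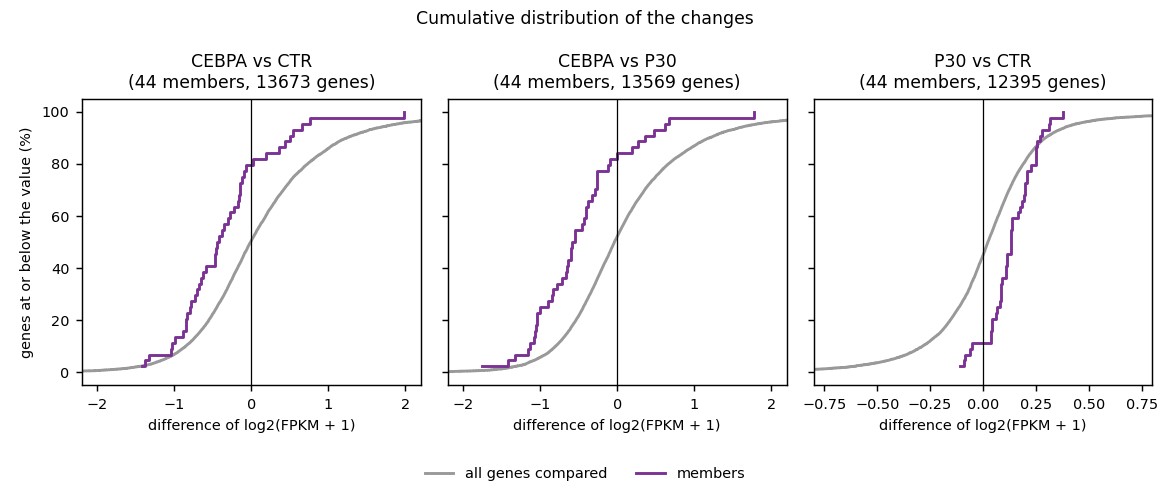
Cumulative share of genes (y axis, %) at or below a difference of log2(FPKM + 1) (x axis) in each comparison, with a purple line for the 44 members and a grey line for all genes compared. The purple line lies left of the grey one over most of both comparisons with CEBPA, though not below the lowest member, at -1.41 and -1.76. It lies right of the grey line over most of P30 vs CTR, where the x axis is narrower and the medians are 0.13 and 0.02.

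Other genes of replication and nucleotide metabolism were taken from fixed lists. Beside the counts of these and the following lists, 50.5% of all genes compared were lower in CEBPA vs CTR. Among genes of like abundance to the members this share was 55.3%. Of 23 further fork and checkpoint genes with a row, 19 were lower in CEBPA vs CTR, with a median of -0.31. The lowest was TIMELESS, a fork protection factor, at -0.95 (51.1 to 26.0 FPKM), followed by the helicase RECQL4 at -0.91, both at least 2-fold lower against P30 (-1.10 and -1.02), and the highest was ATAD5, which unloads PCNA, at 0.70 (8.58 to 14.6 FPKM). In P30 vs CTR the highest of them was MCMBP, an MCM-binding protein, at 0.72 (25.3 to 42.3 FPKM). Chromatin assembly genes were lower in 6 of 7, with a median of -0.61, and UHRF1, which guides maintenance methylation of new DNA, was at -1.15. The histone chaperone ASF1B was at -0.99 there and at -1.02 against P30.

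The supply lists were more mixed. Of 14 other deoxynucleotide genes 12 were lower, with a median of -0.48, and both extremes passed 2-fold: CMPK2, a mitochondrial nucleotide kinase, at -2.29 (20.03 to 3.31 FPKM) and RRM2B at 1.26. Of 22 genes of de novo purine and pyrimidine synthesis 14 were lower and 8 higher, with a median of -0.21, which was -0.10 with the lines scaled to the same sum. MTHFD2, a mitochondrial folate enzyme, was at -1.24 (158 to 66.1 FPKM), whereas ADSS, which makes adenylosuccinate on the way to AMP, was at 1.34 (34.6 to 89.1 FPKM). IMPDH1, an enzyme of guanine nucleotide synthesis, was at -0.88 against CTR and -1.09 against P30.

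The E2F genes themselves were split. E2F1, E2F2 and E2F8 were at least 2-fold lower in CEBPA vs CTR, with changes of -1.01, -1.32 and -1.08, and E2F7 was higher at 1.44 (5.28 to 16.1 FPKM). E2F1 to E2F3 are known as activators, and E2F7 and E2F8 as repressors of the same targets. A list of 20 mitosis genes had a median of -0.42 in CEBPA vs CTR, close to that of the replication genes (-0.43), with 13 lower. AURKB, CENPF and NDC80 of this list were at least 2-fold lower there. In P30 vs CTR its median was 0.02, which turned to -0.003 with the same-sum scaling. There 11 of 20 were higher, beside 55.1% of all genes compared. No difference between the lists was tested.

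**Figure D5:**
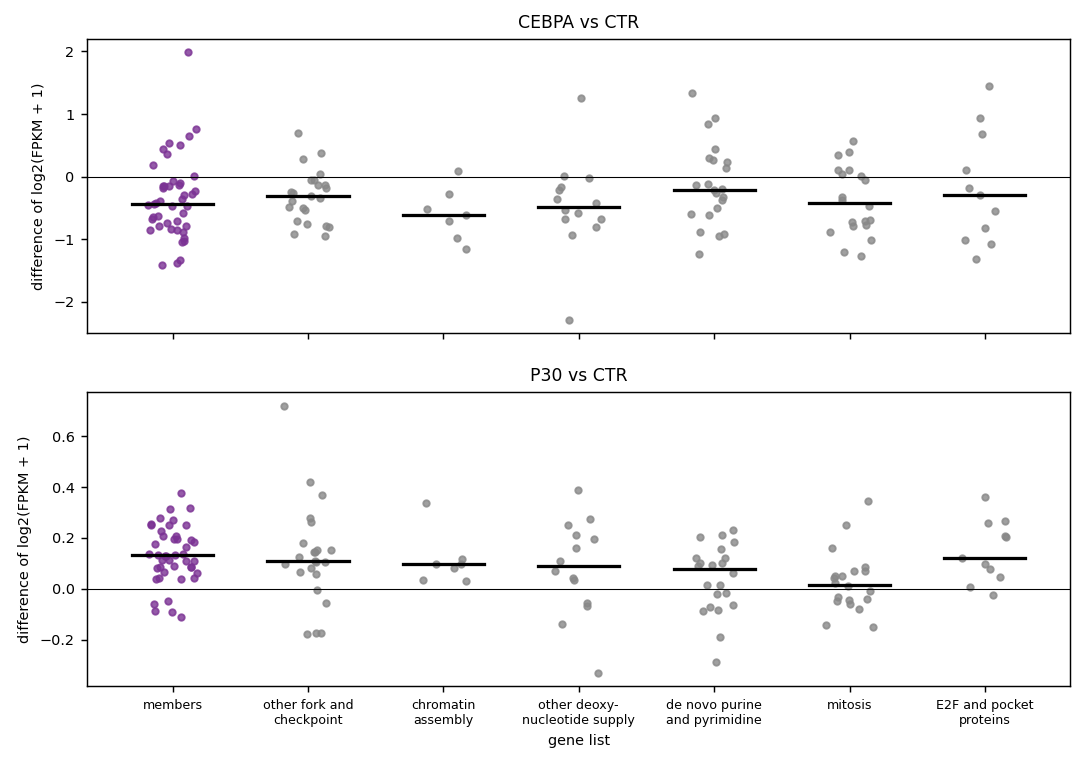
Difference of log2(FPKM + 1) (y axis) of each gene in the members and in 6 other lists (x axis), in CEBPA vs CTR (top) and P30 vs CTR (bottom, narrower axis), with 1 point per gene and a black bar at the median. In the bottom panel the members' bar is at 0.13 and that of the mitosis list at 0.02 (-0.003 with the same-sum scaling).

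Of the 44 members, 8 overlap on the opposite strand a gene that has a row (ORC4 with ACVR2A and MBD5, MCM7 with AP4M1 and TYMS with ENOSF1, for example). The libraries were strand-specific, the study's methods name default settings for the alignment, and the strand setting of the estimates is not stated, so that reads of such partners may not have been told apart. Among the members at least 2-fold apart in CEBPA vs CTR, TYMS (ENSG00000176890) lies on GRCh37 chromosome 18 from 657653 to 673578 and POLA1 (ENSG00000101868) on chromosome X from 24711990 to 25015103, both on the plus strand.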

How the data were processed

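RNA-seq covered 6 samples, with 2 replicates per line. According to the study's methods and the submitters' processing notes (CASAVA 1.4, TopHat2 2.0, Cuffdiff), the authors aligned reads to hg19, assembled them with Cufflinks on a Gencode annotation, and deposited FPKM values from Cuffdiff. Each of 3 tables holds, for every gene, a single FPKM for each of 2 groups, in which the replicates are pooled. The normalization setting and the rule that selected rows are not given in the sources used here. The depth is stated in the study as a range over samples, not for each one, and pooled FPKM leave nothing to compute an interval, SD or p-value from. 0 value columns were left out.

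Changes were computed on log2(FPKM + 1) in each table separately, for genes above 1 FPKM in either group. Every member had identical FPKM in the tables that share a group. Members and lists were chosen with earlier results of these data known. The genes named are all members with a row, and of each other list those past 2-fold in a comparison or, where there were more than 4 or none, the 2 highest and 2 lowest changes. ATAD5, MCMBP, POLE3, POLE4, the single granulocyte markers, the partner ratios and the neighbours of POLA1 were chosen after values were seen. The alternatives were a pseudocount of 0.1, no filter or one at 5 FPKM, centring on the median of all genes, summing rows that share a symbol, scaling groups to the same sum and leaving out POLA1. The computation was tested on simulated data with planted changes well past the 2-fold limit in well-expressed genes. That setting does not cover changes near or under the limit, where most members lie. Motifs were searched in RefSeq promoters (GRCh38.p14), and gene positions are from a Gencode annotation mapped to GRCh37. Python 3.11.15, numpy 2.4.6, pandas 2.3.3 and matplotlib 3.10.9 were used.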

Additional observations from a re-analysis of the deposited data

How the results depend on the processing

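No paired analysis was possible because each line has a single pooled FPKM per gene, and leaving out each replicate was not run for the same reason. With no spread between replicates to go by, the working limits for a moved result were 0.20 for a log2 value and 1.5 times for a count. Of 232 recomputed counts, medians and shares, 227 were within these limits and 5 moved, and the 792 recomputed changes of single members were all within them. For single members this was largely fixed beforehand. Dropping the filter, setting it at 5 FPKM or summing rows leaves a member's value unchanged. Centring and scaling shift all genes nearly alike, by less than 0.20. That limit also exceeds the members' median of 0.13 in P30 vs CTR. With the groups scaled to the same sum, a setting chosen after the data were seen, 3 members were at least 2-fold lower against CTR and 4 against P30 in CEBPA. Without POLA1, likewise chosen after, 0 members were at least 2-fold higher in either comparison. The share of promoters with an E2F motif was 19.2% among genes over 1 FPKM, where fewer genes enter. The same-sum scaling also turned the sign of ORC6 and PRIM2 in CEBPA vs CTR, and of DNA2, ORC6 and ORC3 in CEBPA vs P30, all of them near 0. It took the medians of the licensing members from -0.17 to -0.07 against CTR and of the de novo synthesis genes from -0.19 to -0.06 against P30.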

Other observations

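The level of POLA1 was set beside those of the other protein coding genes within 1 Mb of it on GRCh37 chromosome X, chosen after its values were seen. Of these neighbours, 7 had a row with over 1 FPKM. In CEBPA vs CTR, SAT1, which acetylates polyamines, was at 3.004 (63.0 to 512 FPKM), ZFX, a zinc finger transcription factor, at 1.75 (5.70 to 21.5 FPKM), KLHL15 at 1.75 (6.26 to 23.4 FPKM) and PDK3, a pyruvate dehydrogenase kinase, at 1.478 (1.24 to 5.23 FPKM). ACOT9 was at 0.41, EIF2S3, a subunit of the translation factor eIF2, at -0.17 and APOO at -0.89. Thus 4 of the 7 were at least 2-fold higher in CEBPA, as POLA1 was, beside 14.0% of all genes compared, and the region was picked for POLA1. In P30 vs CTR the same 7 genes lay between -0.28 and 0.23.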
